A study of Mus musculus with 6 samples.

Results

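Melanocyte pigment genes are described here across K14ΔNLef1 and wild type mouse epidermis. They were chosen by name, as the array rows annotated to exactly 1 of 10 genes, and 9 of the 10 were measured among 11280 genes: Tyr, Tyrp1, Dct, Pmel (listed under its older symbol Si), Gpnmb, Kit, Ednrb, Mitf and Sox10. Mlana was not analysed here. The 9 genes are read by 95 of the 109751 probe sets that carry a single gene symbol, from 6 probe sets for Dct to 17 for Kit, and no filter on low values was applied, so all 9 were tested.

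RNA came from back skin epidermis of female mice, 9.5 weeks old, on a C57BL6/CBA background, in 3 K14ΔNLef1 samples and 3 wild type samples. K14ΔNLef1 mice carry, driven by the promoter of keratin 14 (a gene of basal keratinocytes), a Lef1 that lacks its N-terminal part, where beta-catenin binds, while wild type mice carry no transgene. The labels give the cells as unfractionated keratinocytes, name cell sorting before RNA extraction without a gate, and call the samples biological replicates. How many founder lines were used is not stated by the labels.

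Melanocytes are the pigment cells that descend from the neural crest, and in the back skin of adult mice they sit mostly in hair follicles. Mitf is the transcription factor that drives their pigment genes, Sox10 acts upstream of it, and the Mitf promoter used in melanocytes is a known target of Lef1 and its relatives. Melanin is made in melanosomes by Tyr, Tyrp1 and Dct on fibrils built from Pmel, while the surface receptors Kit and Ednrb carry the survival and growth signals that keratinocytes and other skin cells send.

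The sequences before the start sites of these genes are shown because they carry the motifs through which Mitf and Lef1 are known to act, and the values of the same genes follow. RefSeq windows on GRCm38.p6 were found for 7 of the 10 genes, Tyr, Tyrp1, Dct, Gpnmb, Kit, Mitf and Ednrb, in 10 windows, and the 250 bases before each start were searched on both strands for CATGTG, the core of the Mitf motif, and for CTTTGAT, a Lef1 motif. CATGTG occurred in Tyr, Tyrp1 and Dct, and in 12.3% of 32851 such windows of all genes. CTTTGAT occurred in the window of the most downstream of 3 Mitf starts, and in 3.21% of windows. The motifs do not overlap each other in these sequences. Around CATGTG, Tyr, Tyrp1 and Dct share the run GTCATGTGCT, which is in 0.155% of windows. That run was taken from these 3 sequences, so its share is a description. Capitals mark the shared run, CATGTG in either orientation, or CTTTGAT.
Tyr, chr7:87493513-87493762, minus strand: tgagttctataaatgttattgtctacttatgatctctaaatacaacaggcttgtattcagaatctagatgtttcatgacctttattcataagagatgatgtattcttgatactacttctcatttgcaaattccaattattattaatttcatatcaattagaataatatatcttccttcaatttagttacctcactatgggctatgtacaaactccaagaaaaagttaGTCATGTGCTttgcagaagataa
Tyrp1, chr4:80833963-80834212, plus strand: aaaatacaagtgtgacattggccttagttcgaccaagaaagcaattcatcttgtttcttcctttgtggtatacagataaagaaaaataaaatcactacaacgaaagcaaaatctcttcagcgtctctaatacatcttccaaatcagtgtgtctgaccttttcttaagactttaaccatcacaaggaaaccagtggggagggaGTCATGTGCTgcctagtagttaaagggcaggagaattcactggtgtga
Dct, chr14:118052247-118052496, minus strand: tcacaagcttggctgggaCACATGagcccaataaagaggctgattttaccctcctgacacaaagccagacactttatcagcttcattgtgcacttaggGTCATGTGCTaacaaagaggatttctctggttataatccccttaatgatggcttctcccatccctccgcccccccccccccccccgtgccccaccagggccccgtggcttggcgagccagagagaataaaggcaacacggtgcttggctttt
Mitf, chr6:97991533-97991782, plus strand: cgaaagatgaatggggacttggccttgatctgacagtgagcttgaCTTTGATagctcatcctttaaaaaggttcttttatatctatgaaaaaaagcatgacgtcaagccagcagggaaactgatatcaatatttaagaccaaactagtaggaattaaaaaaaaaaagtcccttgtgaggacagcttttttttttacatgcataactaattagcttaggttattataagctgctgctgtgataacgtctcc

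In these windows CATGTG began 21 bases before the start of Tyr, 46 before that of Tyrp1, and 150 and, on the other strand, 232 before that of Dct. CTTTGAT began 205 bases before the Mitf start. The windows of Gpnmb, Kit and Ednrb and the other 2 Mitf windows held neither set of letters. The array values carry no position, so the build of these windows does not bear on them.

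Values are log2 intensities, averaged per gene over its probe sets, and a difference is K14ΔNLef1 minus wild type on that scale. Median intensity over all probe sets was 154.2 to 203.2 on the K14ΔNLef1 arrays and 190.2 to 199.8 on the wild type arrays, and K14ΔNLef1 replicate 1 was the dimmest array. Mean levels of Tyr, Tyrp1, Kit and Ednrb lie in the dimmest 25% of genes, and Tyr has no probe set whose mean is above the median of all probe sets. The number of arrays limits the precision. Lef1, which reads the transgene, had gene values of 11.11, 11.13 and 11.24 in K14ΔNLef1 and 5.81, 7.02 and 6.26 in wild type, so the labels match it. Keratinocyte markers, 16 of 18 measured, averaged 10.19 to 10.80 on K14ΔNLef1 arrays and 10.83 to 10.85 on wild type arrays, and 0 of the 16 passed the test. Of these 13 were lower in K14ΔNLef1, as were 6450 of the 11280 genes. Their median difference was -0.34, beside -0.054 for all genes. Without overlap, 6 of the 16 were lower, as were 1334 of all genes.

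None of the 9 pigment genes passed the test over all genes, where 1.16% of genes did (limma, two-sided, Benjamini-Hochberg adjusted p at or under 0.05, with 37 genes higher and 94 lower in K14ΔNLef1). At an unadjusted p under 0.05, 4 of the 9 met that mark, Tyr, Gpnmb, Tyrp1 and Kit, all higher in K14ΔNLef1, against 4.21% of all genes in that direction and 11.8% in either. The values of the same 4 did not overlap between genotypes, where 6.91% of all genes were higher without overlap and 18.7% had no overlap in either direction. The split of calls over all genes depended on scaling, with 101 higher and 133 lower once array medians were made equal and 89 and 112 with quantile normalization. Of the 9 pigment genes 6 had a difference above 0, as did 42.8% of all genes, and their median was 0.33, beside -0.054 for all genes. With array weights the same 4 passed (limma adjusted p of 0.00584 to 0.0298), in a fit that weighted K14ΔNLef1 replicate 2 at 5.18 and K14ΔNLef1 replicate 1 at 0.15. That fit called 1296 of the 11280 genes, 598 of them higher in K14ΔNLef1, against 131 as deposited. In bulk samples, more cells of a type and more RNA per cell cannot be told apart.

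Tyr, the enzyme that starts melanin synthesis, had gene values of 5.25, 5.57 and 5.47 on K14ΔNLef1 replicates 1, 2 and 3 and 4.65, 4.91 and 4.94 on the wild type replicates. Every K14ΔNLef1 array was above every wild type array, with a gap of 0.31 between the nearest. The difference was 0.60 (SE 0.18), or 1.52-fold with a 95% interval of 1.13 to 2.02, and the limma adjusted p was 0.229. By unadjusted p (0.0107) Tyr ranked 524 among the 11280 genes. Of its 8 probe sets 7 were higher in K14ΔNLef1 and 3 were so without overlap, where 42.5% and 5.11% of all probe sets were. The differences ran from -0.11 to 1.24. Among those without overlap, 5584817 and 5345116 were dim, with wild type means of 2.67 and 4.14. The other, 5226265, had a wild type mean of 6.18 and differed by 0.36. The brightest Tyr probe set, 4775279, overlapped between genotypes, with a difference of 0.17.

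Tyrp1, which acts after Tyr in melanin synthesis and stabilises it, gave the same order of genotypes. Its gene values were 6.40, 6.85 and 6.52 in K14ΔNLef1 and 6.003, 6.11 and 6.06 in wild type. The wild type arrays lay close together, with an SD of 0.053, and K14ΔNLef1 arrays spread more, with an SD of 0.23. The difference was 0.53 (SE 0.18), or 1.44-fold with an interval of 1.08 to 1.93, with a limma adjusted p of 0.302. With the brighter probe sets alone it was 0.16 (adjusted p of 0.791). Of 10 probe sets 9 were higher in K14ΔNLef1 and 1 was so without overlap, where 42.5% and 5.11% of all probe sets were. That probe set, 4441646, is a dim one and read 3.61, 4.86 and 4.96 in K14ΔNLef1 and 2.30, 2.96 and 3.55 in wild type, a difference of 1.54 (adjusted p of 0.406).

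Dct, the dopachrome tautomerase of the same enzyme family, showed no such separation. Its values were 6.60, 7.60 and 7.44 in K14ΔNLef1 and 6.65, 7.37 and 7.64 in wild type, so the lowest array of each genotype lay about as low as the other's. The mean was 7.22 ± 0.54 in K14ΔNLef1 and 7.22 ± 0.51 in wild type (SD, n = 3 each). The difference of -0.0041 had an interval of -0.78 to 0.77, wide enough to hold the differences of Tyr and Tyrp1, and its sign turned once array medians were made equal (0.10) or quantile normalized (0.099). Dct's 6 probe sets split into 3 higher and 3 lower, from -0.38 to 0.29.

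Whether Tyr and Tyrp1 differed from Dct in their response was asked within each array, as 3 pairs chosen after the values were seen. A shift common to all genes of an array cancels there. An array effect that depends on signal level does not, and Tyr and Tyrp1 were dimmer than Dct. Tyr minus Dct was -1.36, -2.03 and -1.97 in K14ΔNLef1 and -2.01, -2.46 and -2.70 in wild type. These overlap, and the genotypes differed by 0.60 (exact permutation p of 0.2, two-sided, where 0.1 is the smallest that 3 against 3 arrays can give). Tyrp1 minus Dct differed by 0.53 (exact permutation p of 0.3) and Tyr minus Tyrp1 by 0.069 (exact permutation p of 0.5). Adjusted over the 3 pairs by Benjamini-Hochberg, these exact permutation p-values were 0.45, 0.45 and 0.5.

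**Figure D1:**
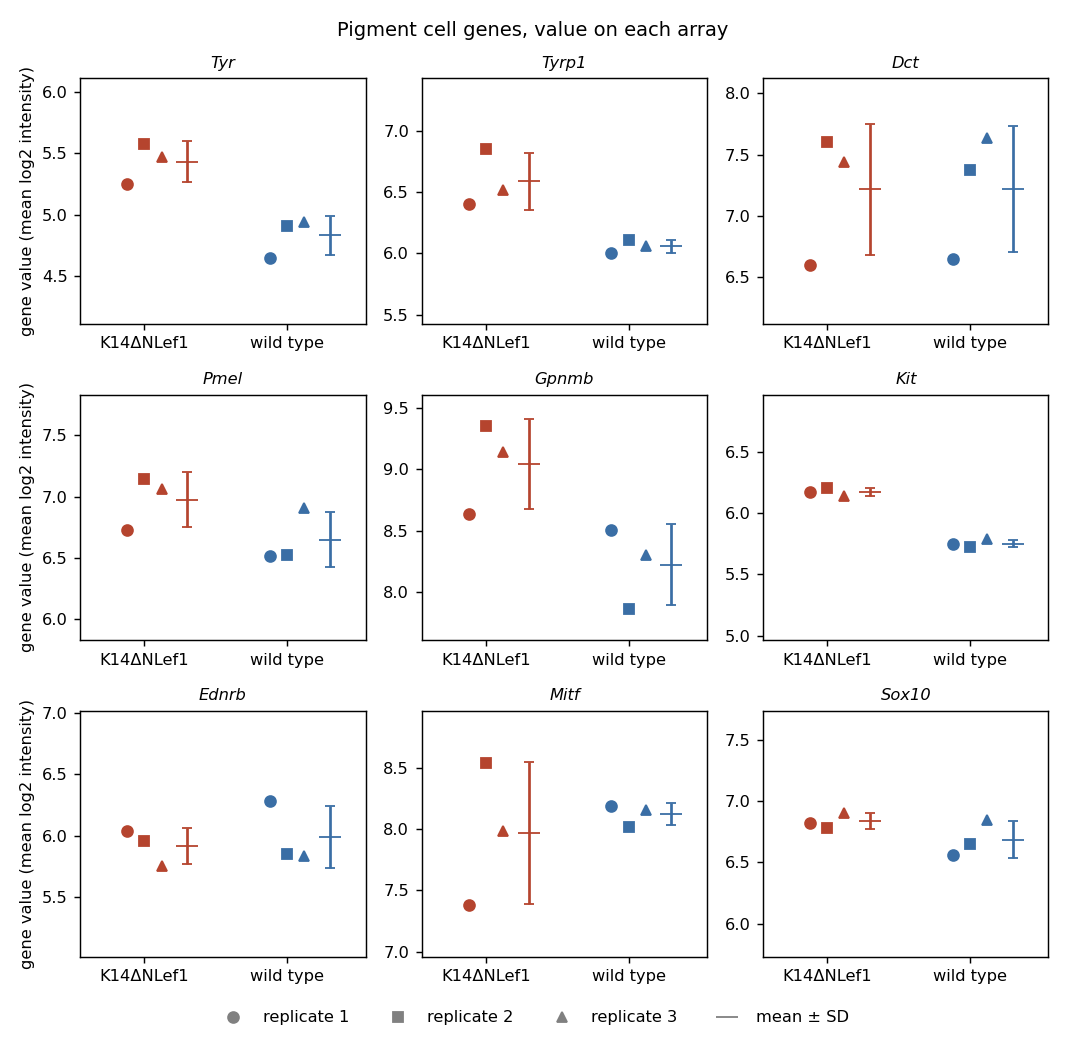
Gene value (mean log2 intensity of the probe sets) of the 9 pigment genes on each of 3 K14ΔNLef1 and 3 wild type arrays, with a marker shape per replicate and a bar for mean ± SD. Tyr, Tyrp1, Gpnmb and Kit show K14ΔNLef1 arrays all above wild type arrays, and the other 5 genes overlap; the vertical axis starts at a different value in each panel.

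Pmel, the protein whose fragments form the melanosome fibrils, had values of 6.73, 7.14 and 7.06 in K14ΔNLef1 and 6.52, 6.52 and 6.91 in wild type. Wild type replicate 3 lay above K14ΔNLef1 replicate 1, so the genotypes overlapped by 1 array each. The difference was 0.33 (SE 0.20), or 1.25-fold with an interval of 0.91 to 1.73, with a limma adjusted p of 0.599, and with the median of the probe sets it was 0.85 (adjusted p of 0.298). Of the 11 Pmel probe sets 9 were higher in K14ΔNLef1, where 42.5% of all probe sets were, and none was without overlap.

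Gpnmb, a relative of Pmel in melanosome and lysosome membranes that macrophages, dendritic cells and osteoclasts also make, had the largest difference of the 9. Its values were 8.64, 9.35 and 9.14 in K14ΔNLef1 and 8.51, 7.86 and 8.30 in wild type. The genotypes were separated by 0.13 between K14ΔNLef1 replicate 1 and wild type replicate 1, less than the spread within either (SD 0.37 and 0.33). The difference was 0.82 (SE 0.25), or 1.77-fold with an interval of 1.18 to 2.65, with a limma adjusted p of 0.235. Of 16 probe sets 15 were higher in K14ΔNLef1 and 9 were so without overlap, where 42.5% and 5.11% of all probe sets were. The probe set with the smallest p, 4444155, read 11.48, 12.11 and 11.78 in K14ΔNLef1 and 10.92, 10.39 and 10.17 in wild type, a difference of 1.30 (adjusted p of 0.267).

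Kit, the receptor tyrosine kinase on which melanocyte survival depends and which mast cells also carry, had the tightest values. They were 6.17, 6.21 and 6.14 in K14ΔNLef1 and 5.75, 5.72 and 5.79 in wild type. The gap of 0.35 between the genotypes was larger than the SD within each, 0.033 in K14ΔNLef1 and 0.032 in wild type. The difference was 0.42, or 1.34-fold with an interval of 1.04 to 1.72, and the limma adjusted p was 0.344. With the brighter probe sets alone it was 0.23 (adjusted p of 0.710). The limma SE of 0.16 is larger than the gene's own spread because limma draws each gene's variance towards that of all genes. Of 17 probe sets 14 were higher in K14ΔNLef1 and 4 were so without overlap, where 42.5% and 5.11% of all probe sets were. The one of these with the smallest p, 4430581, read 6.39, 6.56 and 7.58 in K14ΔNLef1 and 5.32, 5.54 and 5.58 in wild type (adjusted p of 0.319).

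Ednrb, the endothelin receptor of melanocytes and their precursors, overlapped between the genotypes. It had 6.04, 5.96 and 5.75 in K14ΔNLef1 and 6.28, 5.85 and 5.84 in wild type, a difference of -0.072 with an interval of -0.52 to 0.38. The sign of that difference turned with shifted medians (0.037), quantile normalization (0.007) and the brighter probe sets alone (0.49). Its 9 probe sets did not share a direction: 5 were higher in K14ΔNLef1, by 0.085 to 0.76, and 4 were lower, from -0.62 to -0.75. The test of unequal change along the transcript (diffSplice) did not call Ednrb (adjusted p of 0.999999).

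The transcription factors did not separate the genotypes either. Mitf had 7.38, 8.54 and 7.99 in K14ΔNLef1 and 8.19, 8.02 and 8.16 in wild type. K14ΔNLef1 replicate 1 lay below all wild type arrays and K14ΔNLef1 replicate 2 above all of them. The difference was -0.15 with an interval of -0.80 to 0.50 (limma adjusted p of 0.881), and without K14ΔNLef1 replicate 1 it was 0.14. Mitf is made in many cell types from several promoters, and the gene value does not single out the melanocyte form. Of the 11 Mitf probe sets 4 were higher and 7 lower in K14ΔNLef1.

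Sox10, a factor of the neural crest lineage, had 6.82, 6.78 and 6.90 in K14ΔNLef1 and 6.56, 6.64 and 6.85 in wild type. The difference was 0.15 with an interval of -0.24 to 0.54 (limma adjusted p of 0.780), and 1 wild type array lay above 2 of the K14ΔNLef1 arrays. Schwann cells express Sox10 as well. Of 18 Schwann and peripheral glial markers 14 were measured, 0 passed, and their mean was 6.97 to 7.07 in K14ΔNLef1 and 7.02 to 7.07 in wild type.

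**Figure D2:**
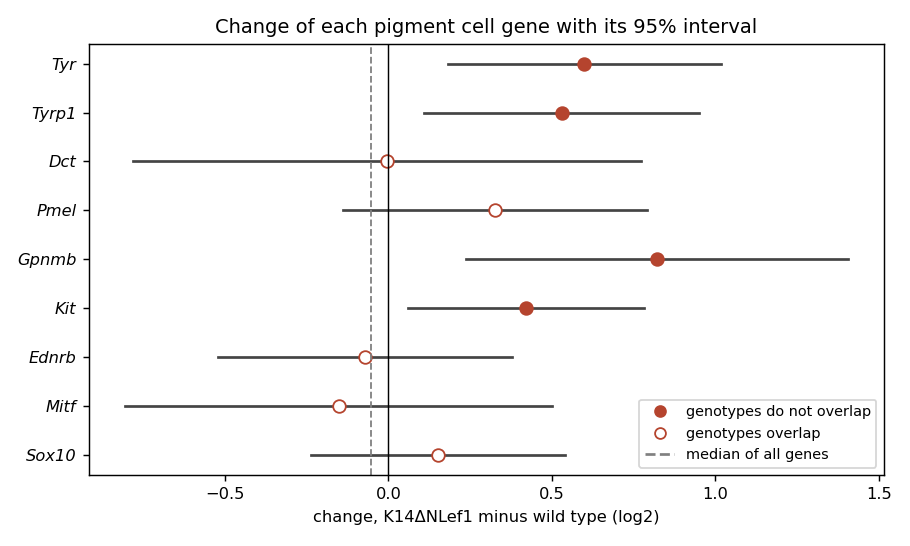
Difference between K14ΔNLef1 and wild type (log2) for each pigment gene, with the 95% interval from limma over 3 arrays per genotype; filled points mark genes whose genotypes do not overlap, and the dashed line is the median of all genes (-0.054). The intervals of Tyr, Tyrp1, Gpnmb and Kit lie above 0 before adjustment and those of the other 5 include 0.

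The genes that passed differed by 0.91 or more, or 1.88-fold, and Gpnmb, the largest of the pigment genes, differed by 0.82. The upper ends of the intervals reached 2.65-fold for Gpnmb and 2.02-fold for Tyr. The median difference of all genes depended on the scaling and was -0.054 as deposited and 0.054 with array medians made equal. Relative to that median the 9 genes ran from -0.098 for Mitf to 0.88 for Gpnmb, with Tyr at 0.65, Tyrp1 at 0.58 and Kit at 0.48.

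How many genes were without overlap moved with the processing. With array medians made equal it was 6 of 9, Pmel and Sox10 joining the 4 (9.87% of all genes higher without overlap), and with quantile normalization it was 5 (9.52%). With the median of the probe sets in place of the mean it was 3, Tyr, Pmel and Kit (6.4%), and with brighter probe sets only it was 2 of 8 measured, Gpnmb and Ednrb (6.02%).

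Down to single probe sets, 0 of the 95 passed (limma over all probe sets, where 0.19% passed), and the smallest adjusted p was 0.267, for Gpnmb. Across them 71 were higher and 24 lower in K14ΔNLef1, where 42.5% of all probe sets were higher. Without overlap, 18 were higher and 0 were lower, where 5.11% and 9.46% of all probe sets were. Of those 18, 9 belong to Gpnmb, 4 to Kit, 3 to Tyr and 1 each to Tyrp1 and Ednrb. Probe sets of a gene read the same RNA on the same arrays, so they do not add replicates. No pigment gene was called for unequal change along the transcript, which 0.774% of 9818 genes were (diffSplice), and where the probe sets lie in the genes was not analysed here.

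**Figure D3:**
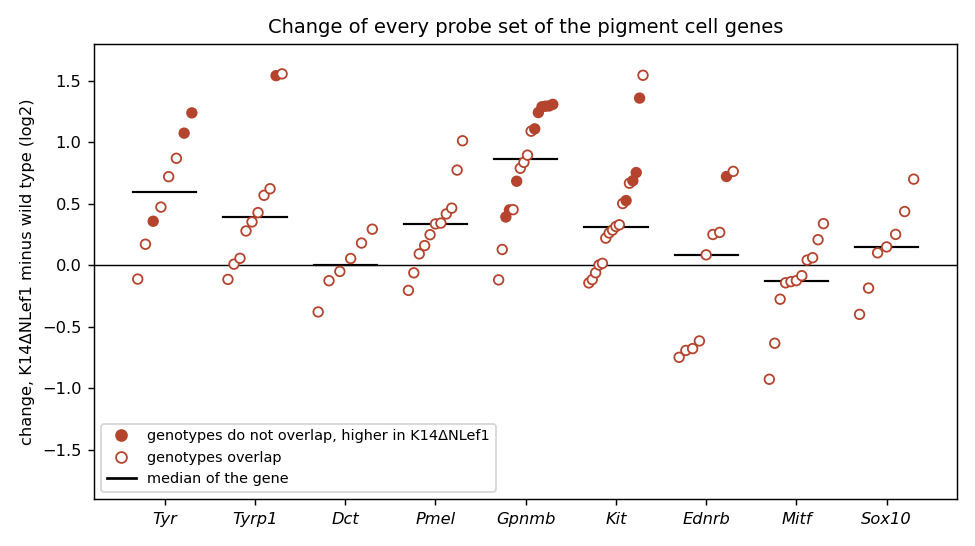
Difference between K14ΔNLef1 and wild type (log2) for each of the 95 probe sets, sorted within its gene, with a line at the gene's median; filled points mark probe sets whose genotypes do not overlap. The points of Gpnmb, Tyr, Kit and Tyrp1 lie mostly above 0, and those of Dct, Ednrb and Mitf lie on both sides.

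Other genes of melanosomes and pigment cells did not share one direction. Of 39 listed, 32 were measured and 0 passed, with 14 higher and 18 lower in K14ΔNLef1 and a median of -0.029, beside -0.054 for all genes. Without overlap, 2 of the 32 were higher, Mc1r and Sox9, and 3 were lower, Rab27a, Atrn and Ap3b1, beside the 6.91% higher and 18.7% in either direction of all genes. Those with the smallest p were Rab27a, a GTPase that tethers melanosomes for transport, and Slc24a5, an ion exchanger of melanosomes. Slc24a5, read by 2 probe sets, had 6.31, 8.01 and 7.91 in K14ΔNLef1 and 6.72, 5.32 and 5.76 in wild type. Wild type replicate 1 lay above K14ΔNLef1 replicate 1, and the difference of 1.47 (SE 0.51) had a limma adjusted p of 0.299. Rab27a, which many secreting cells use, had 8.60, 9.39 and 9.15 in K14ΔNLef1 and 9.96, 9.79 and 10.12 in wild type, a difference of -0.91 (SE 0.24, adjusted p of 0.155). With array weights, where 1296 of the 11280 genes passed, both did, Slc24a5 at 2.005 (adjusted p of 0.00534) and Rab27a at -0.62 (0.0265). Without K14ΔNLef1 replicate 1 they did not pass (0.0553 and 0.102). Mc1r, the melanocortin receptor that sets pigment type, was named after its values were seen, as were Sox9, Atrn and Ap3b1: it had 7.05, 6.98 and 6.66 in K14ΔNLef1 and 6.53, 6.58 and 6.47 in wild type, a difference of 0.37 (adjusted p of 0.492).

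Among the signals that reach melanocytes, 22 of 29 listed genes were measured and 0 passed, with 14 higher and 8 lower and a median of 0.10. Without overlap, 1 of the 22 was higher, Edn1, and 2 were lower, Bmp4 and Met. Of all genes 6.91% were higher without overlap and 18.7% had no overlap in either direction. Met was named after its values were seen. Edn1, an endothelin that keratinocytes secrete and that Ednrb binds, had the smallest p. Its values were 6.83, 8.26 and 7.72 in K14ΔNLef1 and 6.18, 6.29 and 6.06 in wild type, with all K14ΔNLef1 arrays above all wild type arrays. The difference was 1.43 (SE 0.33), or 2.69-fold with an interval of 1.58 to 4.59, with a limma adjusted p of 0.117, so Edn1 was not called as deposited. It did pass with array medians made equal (adjusted p of 0.0212), with quantile normalization (0.0232), with array weights (5.49e-04) and without K14ΔNLef1 replicate 1 (0.0100). Those settings called 234, 201, 1296 and 239 of the 11280 genes, against 131 as deposited. In every other setting tried Edn1 did not pass. Its limma adjusted p was 0.211 and 0.210 without K14ΔNLef1 replicates 2 and 3. Without wild type replicates 1, 2 and 3 it was 0.315, 0.290 and 0.385. Bmp4, a growth factor of many skin cells, had the next smallest p, with 8.35, 8.45 and 8.87 in K14ΔNLef1 and 9.85, 9.11 and 9.34 in wild type (adjusted p of 0.190).

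Kitl, the ligand of Kit, was named for that role after its values were seen. It had 5.25, 5.71 and 6.33 in K14ΔNLef1 and 4.96, 5.06 and 5.32 in wild type. Wild type replicate 3 lay just above K14ΔNLef1 replicate 1, and the difference was 0.65 (SE 0.28) with a limma adjusted p of 0.418. It passed with array weights (adjusted p of 0.0407), where 1296 of the 11280 genes did. Without K14ΔNLef1 replicate 3 the difference was 0.37 (adjusted p of 0.460). Within K14ΔNLef1, replicate 3 was the highest array for Kitl, while Kit stayed between 6.14 and 6.21, too narrow a range to order the arrays. A link between the ligand and its receptor was not tested.

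**Figure D4:**
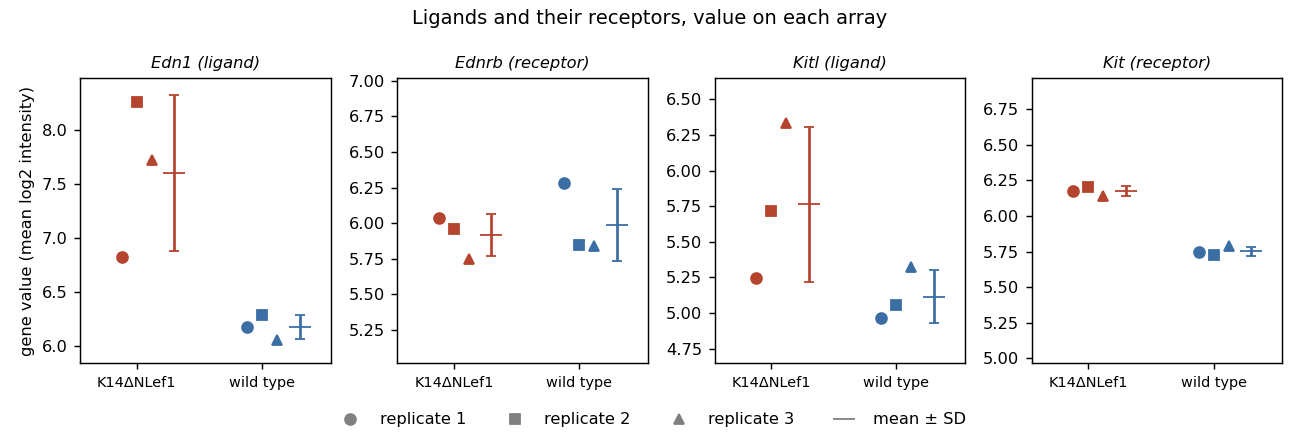
Gene values (mean log2 intensity) of the ligands Edn1 and Kitl beside their receptors Ednrb and Kit on each array, with K14ΔNLef1 left of wild type and bars for mean ± SD. K14ΔNLef1 arrays lie above all wild type arrays for Edn1 and Kit, while Ednrb and Kitl overlap.

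The order of the arrays within each genotype was set beside that of markers of other cells. Gpnmb, Mitf, the mean of the 32 other pigment cell genes described above, and the means of Langerhans cell and of T cell markers all stood in the order of replicates 2, 3, 1 from high to low in K14ΔNLef1 and 1, 3, 2 in wild type. The mean of the 32 genes spanned less, with 7.06, 7.43 and 7.41 on K14ΔNLef1 replicates 1, 2 and 3 and 7.35, 7.308 and 7.313 on the wild type replicates. Wild type replicates 2 and 3 were thus nearly equal for that mean, and their order there carries little. The same holds for wild type replicates 1 and 3 of Mitf, at 8.19 and 8.16. Tyr, Tyrp1, Dct and Pmel had the K14ΔNLef1 part of the order too, in which the dimmest array came last. The share of all genes that stand in this order was not counted, so the match is a description. Langerhans cell markers, 11 of 12 measured, averaged 7.38, 8.51 and 7.95 on K14ΔNLef1 replicates 1, 2 and 3 and 7.67, 6.90 and 7.20 on the wild type replicates. T cell markers, 9 of 14 measured, averaged 7.67, 9.28 and 8.73 in K14ΔNLef1 and 8.22, 7.44 and 7.68 in wild type. None of these markers passed, the smallest p being those of Mfge8 and Fcer1g among Langerhans cell markers (differences 0.86 and 0.74) and of Gzmc and Cd2 among T cell markers (1.72 and 0.84). The median difference was 0.74 for the Langerhans cell list, with 10 of 11 higher and 3 higher without overlap. It was 0.77 for the T cell list, with 8 of 9 higher and 1 higher without overlap. Both medians were above the 0.33 of the 9 pigment genes. Of all genes 42.8% were higher and 6.91% were higher without overlap. In both lists K14ΔNLef1 replicate 1 lay below wild type replicate 1, whereas Gpnmb had 8.64 on that K14ΔNLef1 array and 8.51 on that wild type array.

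The genes whose values ran most like those of Gpnmb were Hcls1, Lcp1, Pacc1, Lime1 and Lsp1, with Pearson's r of 0.993, 0.993, 0.992, 0.983 and 0.983 over the 6 arrays. They were picked from 3757 genes with a range of at least 1, of which 120 reached 0.9, and the difference between genotypes is part of each r. Hcls1, Lcp1 and Lsp1 are known from leukocytes. Lcp1, an actin bundling protein, had 7.28, 9.14 and 8.53 in K14ΔNLef1 and 7.24, 6.03 and 6.80 in wild type (difference 1.63, limma adjusted p of 0.218).

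Macrophage and osteoclast markers, 18 of 19 measured, averaged 6.47 to 6.63 in K14ΔNLef1 and 6.41 to 6.51 in wild type, with 0 passing and a median difference of 0.093. Of the 18, 12 were higher and 6 lower. Cd14 and Csf1r had the smallest p, with differences of -0.54 and 0.59 (limma adjusted p of 0.458 and 0.535). Csf1r had 6.72, 7.93 and 7.25 in K14ΔNLef1 and 7.01, 6.45 and 6.68 in wild type. Lysosomal genes, 23 of 28 measured, had a median difference of -0.20, with 4 higher and 19 lower, and were lowest on K14ΔNLef1 replicate 1, with a mean of 7.92 against 8.49 and 8.61 on the other K14ΔNLef1 arrays and 8.44 to 8.63 in wild type. The part of immune cells in the Gpnmb values was not tested.

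Mast cells are other skin cells that carry Kit, and their part in the Kit values was not tested. The Kit arrays lay too close within each genotype (SD 0.033 in K14ΔNLef1 and 0.032 in wild type) for their order to be compared. Mast cell markers, 8 of 13 measured, averaged 6.28, 6.03 and 6.14 on K14ΔNLef1 replicates 1, 2 and 3 and 6.08 on each wild type array. None of the 8 passed or was without overlap, and Gata2 and Cma1 had the smallest p (differences 0.21 and 0.15). Cpa3, the mast cell carboxypeptidase, was named after its values were seen and had 6.11, 5.98 and 5.96 in K14ΔNLef1 and 6.14, 5.76 and 5.84 in wild type. Tyr and Tyrp1, like Dct, Pmel and Mitf, shared with Gpnmb the order of the K14ΔNLef1 arrays. In wild type, replicate 1 was the lowest array for Tyr and Tyrp1. It was the highest for Gpnmb and for the Langerhans and T cell lists. The wild type values of Tyrp1 lay close together (SD 0.053), so their order carries little. Endothelial and pericyte markers (13 of 16 measured) and fibroblast markers (14 of 16) had median differences of 0.14 and 0.13, with 0 passing in either list.

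**Figure D5:**
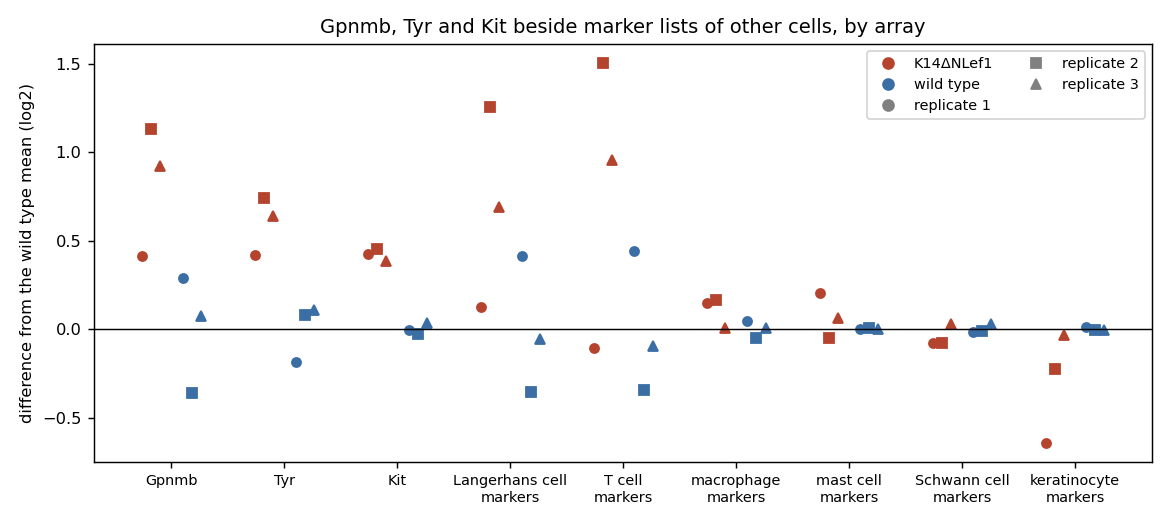
Difference of each array from the wild type mean (log2) for Gpnmb, Tyr and Kit and for the mean of each marker list, with K14ΔNLef1 in red left of wild type in blue and a marker shape per replicate. Gpnmb and the Langerhans and T cell lists share the order of arrays within each genotype. Mitf and the mean of 32 other pigment cell genes, not plotted, have that order too. Wild type replicates 2 and 3 are nearly equal for that mean, and wild type replicates 1 and 3 for Mitf. The mast, Schwann and macrophage lists differ from the wild type mean by 0.20 at most.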

How the data were processed

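Expression was measured on 6 exon arrays, 3 K14ΔNLef1 and 3 wild type, grouped by the sample titles. The deposited values are linear intensities per probe set, made with RMA and Affymetrix Power Tools on mm9, per the submitters' processing notes, with versions and probe set filters not given in the sources used here. Their log2 has 5 decimals, and log2 was taken. Of 114330 probe sets, 109751 had 1 symbol in the platform annotation, 834 had several and 3745 had none listed. Symbols were updated through GRCm38.p6 synonyms for 1228, and 11245 of 11280 were found there. Gene means were compared by two-sided moderated tests (limma 3.58.1, lmFit and eBayes, under R 4.3.3) with Benjamini-Hochberg adjustment and no filter, after checks on simulated data.

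The members and lists were chosen with earlier results of these data known. Named genes are every member, Lef1, in each list those that passed or else the 2 with the smallest p, and the 5 most like the member with the largest difference. For some marker lists those genes are not described. Exact permutation tests used scipy 1.17.1, and figures matplotlib 3.10.9. The labels name biological replicates but no separate litters, and the replicate numbers did not pair the samples. Each K14ΔNLef1 sample also has a sample number next to that of a wild type sample. What those numbers mean is not stated by the labels, so a pairing by them remains possible.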

Additional observations from a re-analysis of the deposited data

How the results depend on the processing

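Under every other processing tried except array weights, 0 pigment genes passed. Of their probe sets 0 passed under the scalings, the eBayes settings, array weights, blocks, the array number covariate and each array left out, and other settings were not run on probe sets. Array weights called 4, Tyr, Gpnmb, Tyrp1 and Kit (smallest adjusted p of 0.00584); that fit called 1296 genes in all and gave K14ΔNLef1 replicates 1, 2 and 3 weights of 0.15, 5.18 and 0.61, so it rests largely on replicate 2. With each array left out the smallest adjusted p of the 9 was 0.0742 to 0.518 and 0 passed. Over all genes, 131 calls became 234 with equal medians, 201 with quantile normalization, 75 with the replicate block, 78 with array number as a covariate and 28 to 239 with an array left out (239 without K14ΔNLef1 replicate 1, fewer than as deposited without any other array: 77 and 69 without K14ΔNLef1 replicates 2 and 3, and 46, 31 and 28 without wild type replicates 1, 2 and 3). Of the same-numbered pairs, deviations correlated at -0.163, -0.172 and 0.0358, so the numbers are not taken to pair the samples, and the block left 0 pigment genes passing (smallest adjusted p of 0.361). For pairs with adjacent sample numbers they correlated at -0.0067, 0.199 and -0.0748. A block on those pairs called 91 genes and 0 pigment genes (smallest limma adjusted p of 0.254). The median difference of the 9 was 0.15 without the dimmest 25% of genes, which leaves 5 of them (Tyr, Tyrp1, Kit and Ednrb drop out), 0.20 with brighter probe sets only, which leaves 8 (Tyr drops out), and 0.24 to 0.44 with an array left out. Genes with unequal change numbered 76, 47 with the replicate block and 30 to 140 with an array left out. Signs turned for Dct with equal medians (0.10), quantile normalization (0.099), array weights (0.34) and array number (0.019), for Mitf with array weights (0.33), and for Ednrb with equal medians (0.037), quantile normalization (0.007) and brighter probe sets (0.49). With an array left out Dct ran from -0.29 to 0.30, Mitf from -0.44 to 0.14 and Ednrb from -0.15 to 0.074. The counts without overlap under other settings were chosen after seeing the data. The cause of these changes was not tested.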
